A study of Mus musculus with 12 samples.

Results

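This account follows 9 mouse genes for enzymes that make glutamine, glutamate, NADPH and glutathione, namely Glul, Got1, Idh1, Idh2, Me1, G6pdx, Pgd, Gclc and Gclm, in uterine cells given estradiol (E2). The genes were chosen because Idh1 and Glul stood much higher with E2 in the epithelial layer. Probe sets carrying one of these symbols as their single gene symbol were taken from Affymetrix Mouse Gene 1.0 ST arrays, which gave 10 probe sets of 21789 with a single symbol. They covered 8 of the 9 genes, G6pdx not being analysed here, and 8 of 19938 genes in all. Glul and Me1 had a further probe set each, and the brighter one is reported unless stated.

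The series profiled a primary co-culture of CD-1 mouse uterine cells, taken on day 4 of pseudopregnancy, the epithelial sheets growing on inserts coated with matrigel and the stromal cells on cover slips. All cultures were first kept overnight without hormone in medium with charcoal-stripped serum, and then received either 10 nM E2 or 0.01% ethanol (vehicle) for 2 days. Each layer under each treatment made a group, so there were 4 groups of 3 arrays, 12 in all. No label states that replicate arrays stem from different mice or cultures. The p-values therefore rest on the spread of these samples alone, which may be technical.

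Values are log2 signals on the RMA scale, and the number of arrays limits their precision. A value after ± is the limma standard error of a log2 difference unless SD is written, with 3 arrays in each group. Adjusted p-values come from limma and were corrected by the Benjamini-Hochberg method over the 23410 probe sets that carry a gene symbol. The signal of one probe set is not compared with that of another, since probes differ in brightness. In such bulk layers, fewer cells of a type and less RNA per cell cannot be told apart.

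The layers matched their labels in part. Epithelial markers (14 of 15 measured) averaged 9.93 to 11.50 on the epithelial arrays and 6.84 to 7.33 on the stromal ones. All 14 measured higher in the epithelial layer under vehicle, 13 of them at a limma adjusted p under 0.05. Stromal markers (15 measured) averaged 9.69 to 10.53 on the epithelial arrays, close to the 10.54 to 10.88 of the stromal arrays. Mesothelial markers (6) averaged 8.90 to 9.85 on the epithelial and 6.89 to 7.06 on the stromal arrays, endothelial markers (8) 7.71 to 8.04 and adipocyte markers (7) 7.07 to 7.68 on all 12. Epithelial vehicle replicate 3 had the lowest epithelial marker mean of its group (9.97 against 10.97 and 11.50) and the highest stromal one (10.53 against 9.95 and 9.69). E2 replicates 1 and 2 were the closest pair of arrays in both layers, their differences having an SD of 0.165 against 0.395 and 0.437 for the other epithelial E2 pairs, and 0.113 against 0.194 and 0.218 in stroma. Results are therefore also given with that pair averaged.

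Glutamine synthetase (Glul) joins ammonia to glutamate to form glutamine, and cytosolic aspartate aminotransferase (Got1) passes amino groups between aspartate and glutamate. NADPH, the reducing agent for lipid synthesis and for the defence against oxidants, is made by cytosolic (Idh1) and mitochondrial (Idh2) isocitrate dehydrogenase, by malic enzyme (Me1), and in the pentose phosphate pathway by the products of G6pdx and Pgd. Gclc and Gclm encode the catalytic and modifier subunits of glutamate-cysteine ligase, the first step of glutathione synthesis. NADPH in turn keeps glutathione reduced. In the uterus, estradiol is known for driving growth and secretion of the epithelium, with part of its action passing through the stroma.

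The reason given for the choice names only the epithelial arrays, so the stromal comparison was tested, although the genes were chosen with earlier results of these data known. Glul, Got1 and Idh1 rose with E2 in stroma, 3 of the 8 genes measured, beside 1.52% of all probe sets tested that rose and 3.50% that changed in either direction. Idh1 and Glul are the genes named in the choice, and among the others Got1 alone passed. The fit also shares its spread per probe set with the epithelial arrays. The count is therefore not independent of the choice and is not read as a result about the set. By limma 0 of the 8 fell, with 0 lower at an unadjusted p under 0.05 as well and 4 higher. The median difference of the 8 genes was 0.27, against 0.03 over all probe sets. The direction of each of these 3 rises was the same under every scaling of the arrays that was tried.

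The promoters of the 3 genes that rose in stroma are shown first, with that of Idh2, the mitochondrial counterpart of Idh1, which did not pass. Each is the 250 bases before the first RefSeq start listed for the gene, on the strand of the gene (GRCm38.p6), 5′ to 3′, and capitals mark GGGCGG or its reverse complement, the GC box.
Idh1: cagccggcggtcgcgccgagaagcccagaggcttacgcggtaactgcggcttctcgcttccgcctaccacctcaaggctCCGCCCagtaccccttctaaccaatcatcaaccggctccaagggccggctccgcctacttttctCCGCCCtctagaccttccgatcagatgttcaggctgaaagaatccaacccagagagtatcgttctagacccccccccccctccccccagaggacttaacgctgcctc
Glul: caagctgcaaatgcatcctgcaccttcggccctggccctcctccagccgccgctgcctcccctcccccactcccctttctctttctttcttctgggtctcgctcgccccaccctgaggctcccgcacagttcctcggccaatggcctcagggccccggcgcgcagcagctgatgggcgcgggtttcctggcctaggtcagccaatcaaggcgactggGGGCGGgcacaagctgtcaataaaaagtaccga
Got1: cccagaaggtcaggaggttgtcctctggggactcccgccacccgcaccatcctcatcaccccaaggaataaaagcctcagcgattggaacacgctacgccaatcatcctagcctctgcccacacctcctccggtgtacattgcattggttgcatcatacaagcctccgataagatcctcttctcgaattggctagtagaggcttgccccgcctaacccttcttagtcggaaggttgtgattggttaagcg
Idh2: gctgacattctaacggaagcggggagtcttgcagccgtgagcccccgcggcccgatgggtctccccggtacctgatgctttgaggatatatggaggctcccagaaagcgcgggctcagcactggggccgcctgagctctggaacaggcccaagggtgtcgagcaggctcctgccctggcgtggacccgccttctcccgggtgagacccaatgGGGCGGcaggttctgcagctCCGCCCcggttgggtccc
They lie at chr1:65186480-65186729 on the minus strand for Idh1, at chr1:153899679-153899928 on the plus strand for Glul, at chr19:43524606-43524855 on the minus strand for Got1 and at chr7:80115351-80115600 on the minus strand for Idh2. Of the 9 genes, 8 matched a RefSeq promoter, with 11 promoters in all.

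Both strands were searched for 4 motifs, and no match overlapped another motif. The palindromic estrogen response element, GGTCA and TGACC with any 3 bases between them, was in 0 of the 11 promoters and in 0.0639% of all 32851 mouse promoters over the same 250 bases. The core of the antioxidant response element, TGACNNNGC, was in the promoters of G6pdx and Gclm, 57 and 134 bases before the start counted from the first letter of the match, and in 10.2% of all promoters. The E-box CACGTG was in 0 of 11 and in 6.02% of all. The GC box stood at 171 and 107 bases before the start in Idh1, at 33 in Glul and at 38 and 18 in Idh2, was absent from these letters in Got1, and was in 32.7% of all promoters. The other start listed for Idh1 had one at 19. The GC box was also in the promoters at the first start listed for Me1, G6pdx, Pgd and Gclm. It was absent from those at the further start of Me1 and of Pgd. A match describes letters only.

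**Figure D1:**
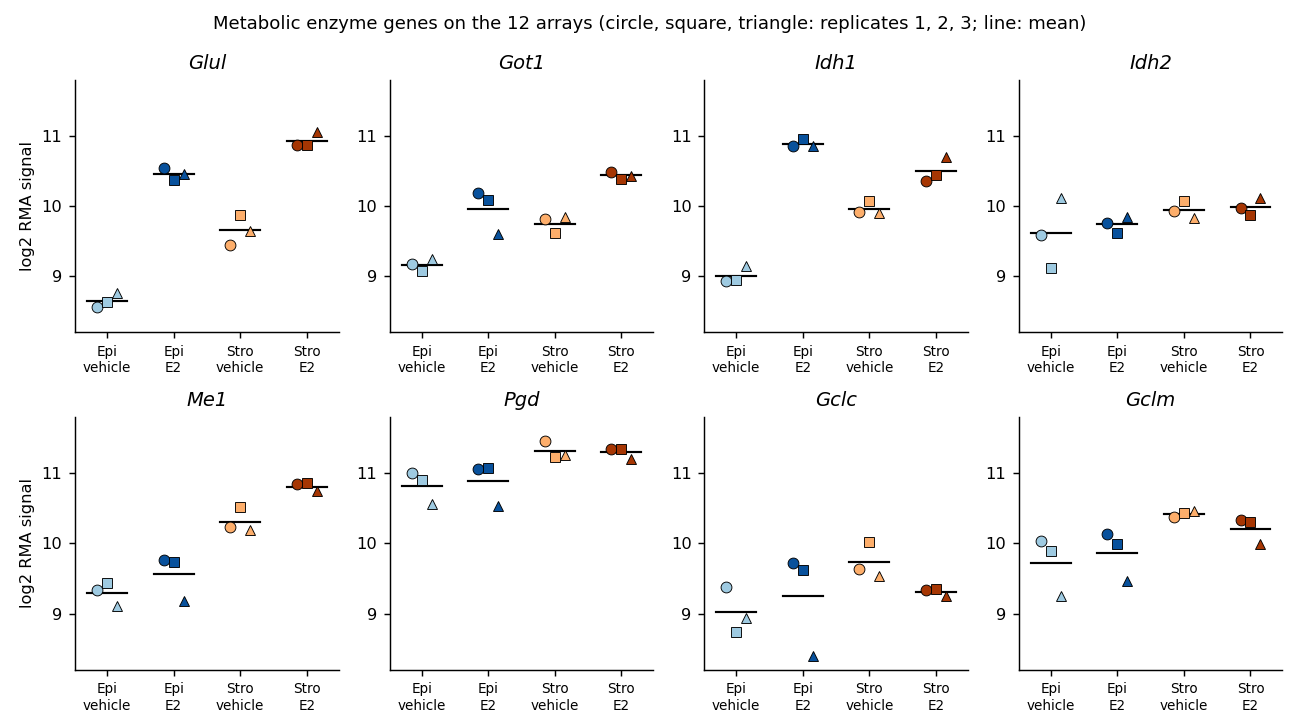
Log2 RMA signal (vertical axis, the same range in each panel) of the 8 enzyme genes on each of the 12 arrays, by layer and treatment, with the group mean as a line and the replicates as circle, square and triangle. Glul reads 9.45 to 9.87 in stroma under vehicle and 10.87 to 11.06 under E2, while Idh2 reads between 9.12 and 10.12 on all arrays.

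Glul had the smallest p of the set in stroma. It read 9.45, 9.87 and 9.65 under vehicle and 10.87, 10.87 and 11.06 under E2. The E2 arrays were all above the vehicle arrays, and the nearest of them were a full log2 unit apart. This was a 2.42-fold rise (1.28 ± 0.11, limma adjusted p = 0.000138). Its further probe set gave 9.32, 9.79 and 9.42 under vehicle and 10.92, 10.92 and 11.14 under E2 (1.49 ± 0.13, limma adjusted p = 0.000148). Glul was called without any 1 of the 12 arrays and with E2 replicates 1 and 2 averaged, its difference lying between 1.17 and 1.38 over all 23 alternatives.

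Got1, which links glutamate to aspartate, read 9.81, 9.61 and 9.85 in stroma under vehicle and 10.49, 10.39 and 10.43 under E2. The E2 arrays lay together above the vehicle arrays, a 1.61-fold rise (0.68 ± 0.14, limma adjusted p = 0.0174). Among the fits on fewer arrays, the call was lost without stromal vehicle replicate 1 (adjusted p = 0.0576) or 2 (0.0711), without stromal E2 replicate 1 (0.0828), 2 (0.0630) or 3 (0.0615), and with E2 replicates 1 and 2 averaged (0.0842). The difference itself stayed between 0.61 and 0.74, and the adjusted p over all alternatives ran from 2.94e-05 to 0.0842 by limma.

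Idh1 read 9.92, 10.07 and 9.90 in stroma under vehicle and 10.36, 10.44 and 10.70 under E2. Groups did not overlap, with E2 replicate 3 the highest, and the rise was 1.45-fold (0.54 ± 0.11, limma adjusted p = 0.0153). Among the fits on fewer arrays, it missed the threshold without stromal vehicle replicate 1 (adjusted p = 0.0768) or 3 (0.0753), without stromal E2 replicate 2 (0.0515) or 3 (0.0600), and with E2 replicates 1 and 2 averaged (0.0648). Across the alternatives the difference lay between 0.44 and 0.61, and the limma adjusted p between 0.000226 and 0.0768. The count of rising members was accordingly 1 without stromal vehicle replicate 1, stromal E2 replicate 2 or stromal E2 replicate 3, and 4 without epithelial E2 replicate 3, where Me1 was added.

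Idh2, the mitochondrial NADP-dependent isoform, did not pass. It read 9.93, 10.07 and 9.83 under vehicle and 9.97, 9.87 and 10.12 under E2 in stroma, and the groups overlapped. The difference was 0.05 ± 0.20 (limma adjusted p = 0.974), with a 95% interval from -0.38 to 0.48. Within each array, log2 Idh1 minus log2 Idh2 came to -0.01, 0.00 and 0.07 for the vehicle arrays, against 0.39, 0.57 and 0.58 for the E2 arrays, where only the change between treatments is of use. That change was 0.49 in favour of Idh1 and was positive for every E2 array against every vehicle array. The exact two-sided permutation p = 0.1 is the smallest that 3 against 3 arrays can give. This test could therefore not reach 0.05, and nothing is read from it. Idh1 is also a gene named in the choice.

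Me1, cytosolic malic enzyme, read 10.23, 10.52 and 10.19 in stroma under vehicle and 10.84, 10.86 and 10.75 under E2. All E2 arrays were higher, but the difference of 0.50 ± 0.16 (95% interval 0.16 to 0.85) did not pass (limma adjusted p = 0.138). Its further probe set measured 0.57 ± 0.17 higher (limma adjusted p = 0.126). Me1 did pass without epithelial E2 replicate 3 (adjusted p = 0.0270), on the 6 stromal arrays alone (0.0163), with the 75th percentile of each array subtracted (0.0348) and with array weights (0.000135), the adjusted p over all alternatives reaching up to 0.410.

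Pgd, 6-phosphogluconate dehydrogenase of the pentose phosphate pathway, read 11.46, 11.23 and 11.26 under vehicle and 11.35, 11.34 and 11.20 under E2 in stroma. These overlapped, and the difference of -0.02 ± 0.16 (95% interval -0.36 to 0.33, limma adjusted p = 0.989) did not pass. The glutathione genes measured lower. Gclc read 9.64, 10.02 and 9.53 under vehicle and 9.34, 9.35 and 9.25 under E2 (-0.42 ± 0.30, 95% interval -1.07 to 0.23, limma adjusted p = 0.721). Gclm read 10.37, 10.43 and 10.46 under vehicle and 10.33, 10.30 and 9.99 under E2 (-0.22 ± 0.21, 95% interval -0.68 to 0.24, limma adjusted p = 0.849). In both, all E2 arrays were below all vehicle arrays, and neither passed. In total 4 of the 8 genes had all E2 arrays higher and 2 had all lower in stroma, beside 15.9% and 14.6% of all probe sets (30.5% in either direction).

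**Figure D2:**
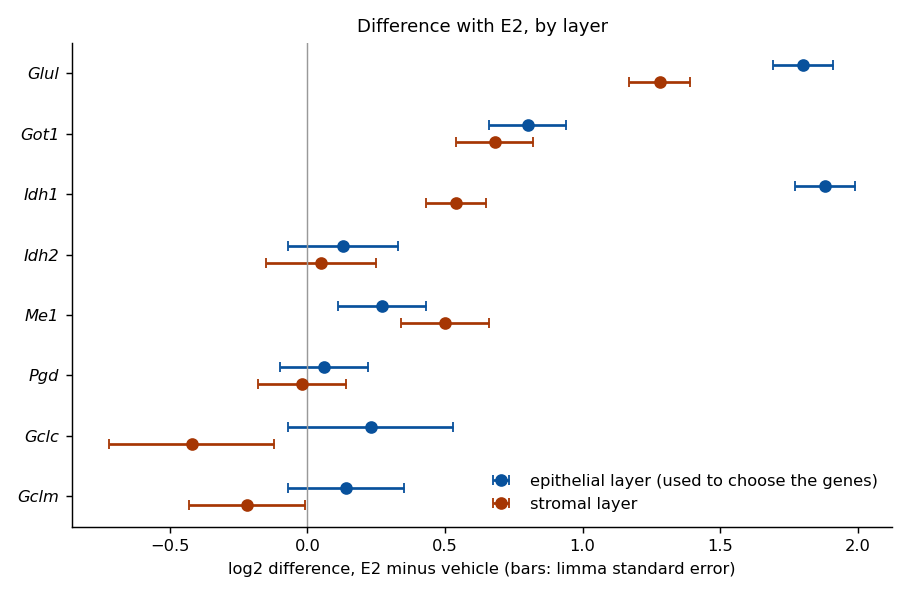
Log2 difference of E2 minus vehicle (horizontal axis) for the 8 enzyme genes in the epithelial and the stromal layer, with bars of 1 limma standard error. In stroma the points of Glul, Got1 and Idh1 lie at 1.28, 0.68 and 0.54, and in the epithelial layer, which served to choose the genes, at 1.80, 0.80 and 1.88.

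Markers of other cells also differed between the same stromal arrays. The epithelial marker mean ranged from 6.84 to 7.08 in vehicle arrays and from 7.16 to 7.33 in E2 arrays, with 12 of 14 markers measuring higher and 1 passing. For smooth muscle markers it ranged from 11.41 to 11.53 and from 11.68 to 11.75, with 7 of 8 measuring higher and 2 passing. Leukocyte markers averaged 9.56 to 9.65 and 9.26 to 9.48, with 9 of 14 measuring lower and 0 passing by limma (1 higher and 2 lower at an unadjusted p under 0.05). Their part in the differences of the enzyme genes was not tested.

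In the epithelial layer, where the genes were chosen, Idh1 read 8.93, 8.95 and 9.14 under vehicle and 10.86, 10.96 and 10.85 under E2. Glul read 8.56, 8.63 and 8.76 under vehicle and 10.54, 10.37 and 10.45 under E2. In both genes the 3 E2 arrays lay within 0.2 of each other and more than 1.5 log2 units above the vehicle arrays. These values describe the choice and are given without a test, as are all others of this comparison for the set.

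Got1 read 9.17, 9.07 and 9.24 under vehicle and 10.19, 10.08 and 9.60 under E2 in the epithelial layer, a difference of 0.80 ± 0.14 with no overlap. E2 replicate 3 stood well below the other E2 arrays. Idh1 (1.88 ± 0.11, 3.69-fold), Glul (1.80 ± 0.11, 3.49-fold) and Got1 (1.74-fold) were thus the 3 of 8 genes without overlap, beside 6.95% of all probe sets not overlapping upward and 8.04% downward. The share of all probe sets called higher was 1.77%, lower 1.12% and in either direction 2.90%. Nothing is read from this count, which the choice of genes used.

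The other 5 genes overlapped between treatments in the epithelial layer. Idh2 read 9.59, 9.12 and 10.11 under vehicle and 9.76, 9.61 and 9.85 under E2 (0.13 ± 0.20). Me1 read 9.33, 9.44 and 9.11 under vehicle and 9.76, 9.74 and 9.18 under E2 (0.27 ± 0.16). The vehicle arrays of Idh2 were spread widely on both sides of replicate 1, and E2 replicate 3 of Me1 stood below the other E2 arrays.

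Pgd read 11.01, 10.90 and 10.56 under vehicle and 11.06, 11.08 and 10.53 under E2 in that layer (0.06 ± 0.16). Gclm read 10.03, 9.89 and 9.25 under vehicle and 10.13, 9.99 and 9.46 under E2 (0.14 ± 0.21). The array numbered 3 was the lowest in both treatments for Pgd, Gclm and Me1. Gclc read 9.38, 8.74 and 8.93 under vehicle and 9.72, 9.62 and 8.40 under E2 (0.23 ± 0.30), E2 replicate 3 being the lowest of all 6 arrays. Without that array the Gclc difference was 0.65, and that of Got1 was 0.97.

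Marker lists differed between the epithelial groups too. Epithelial markers averaged 10.97, 11.50 and 9.97 under vehicle and 9.93, 10.13 and 10.16 under E2, 12 of 14 measuring lower. Leukocyte markers averaged 8.60, 8.37 and 8.67 under vehicle and 9.23, 9.28 and 8.56 under E2, so that E2 replicate 3 lay in the vehicle range. Stromal markers averaged 9.69 to 10.53 under vehicle and 10.42 to 10.48 under E2, 11 of 15 measuring higher. Their part in the values above was not tested.

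Set side by side, the E2 difference was larger in epithelium than in stroma by 1.34 ± 0.15 for Idh1 and by 0.53 ± 0.16 for Glul (0.29 ± 0.19 for its further probe set). For Got1 the layers differed by 0.11 ± 0.19, for Idh2 by 0.08 ± 0.28 and for Me1 by -0.23 ± 0.22. Because Idh1 and Glul were chosen on the epithelial difference, these are descriptions. Gclc had the widest error of the set in this difference (0.65 ± 0.42), which became 1.07 without epithelial E2 replicate 3.

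The levels of the 2 layers without hormone were compared next. All 8 genes measured lower in the epithelial than in the stromal layer under vehicle, from -1.02 for Me1 to -0.33 for Idh2. Idh1 was lower by 0.95 ± 0.11 on the log2 scale (1.94-fold) and Glul by 1.01 ± 0.11 (2.01-fold), given without a test since their epithelial vehicle arrays entered the choice. The other 6 genes had a median of -0.65, against 0.02 over all probe sets, and in 5 of the 6 all epithelial arrays lay below all stromal arrays, beside 21.3% of all probe sets in that direction and 36.0% in either. Of these 6, Me1, Got1, Gclm and Pgd passed as lower, 4 of 6, beside 14.1% of all probe sets (21.4% in either direction). The genes were chosen with earlier results of these data known, and the fit shares its spread with the epithelial E2 arrays. This count is therefore not read as a result about the set.

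Me1 stood 2.03-fold lower in epithelium (-1.02 ± 0.16, limma adjusted p = 0.000961), and its further probe set 2.24-fold lower (-1.16 ± 0.17, limma adjusted p = 0.000828). Got1 was 1.51-fold lower (-0.59 ± 0.14, limma adjusted p = 0.00966). Both were called under each of the 23 alternatives, those without 1 array included. Gclm was 1.62-fold lower (-0.70 ± 0.21, limma adjusted p = 0.0350) and Pgd 1.41-fold lower (-0.49 ± 0.16, limma adjusted p = 0.0450). Gclc (-0.71 ± 0.30, 95% interval -1.37 to -0.06, limma adjusted p = 0.117) and Idh2 (-0.33 ± 0.20, 95% interval -0.76 to 0.10, limma adjusted p = 0.260) did not pass.

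The calls of Gclm and Pgd depended on single arrays. Without epithelial vehicle replicate 3, Gclm measured -0.46 (limma adjusted p = 0.107) and Pgd -0.36 (0.151), while Idh2 measured -0.59 and passed (0.0170). Gclm was also lost without stromal vehicle replicate 1 (0.0764), 2 (0.0937) or 3 (0.0968) or stromal E2 replicate 2 (0.0508), and Pgd without any 1 of the 3 stromal vehicle arrays (0.149, 0.0821 and 0.0866) or of the 3 stromal E2 arrays (0.0646, 0.0658 and 0.0590). Over all alternatives the limma adjusted p ran from 0.0102 to 0.107 for Gclm and from 0.00811 to 0.151 for Pgd. Gclc passed without epithelial E2 replicate 3 (0.00932), its largest value over the alternatives being 0.322. The count of 4 became 2 without any 1 of the stromal vehicle arrays or without stromal E2 replicate 2.

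How the arrays are scaled mattered for the layers. Subtracting the 75th percentile of each array shifted the median of all probe sets in this comparison by 0.17 and moved the share of calls that were higher in epithelium from 34.1% to 59.2%. Under that scaling the 8 genes still measured lower, Me1 at -0.86, Glul at -0.84, Idh1 at -0.79 and Got1 at -0.43. Pgd (-0.33, limma adjusted p = 0.124) and Gclm (-0.53, 0.0718) were then not called. On the deposited scale leukocyte markers averaged 8.37 to 8.67 on the epithelial and 9.56 to 9.65 on the stromal vehicle arrays. Of these 14, 12 measured lower in epithelium, 10 passing as lower and 1 as higher. Smooth muscle markers averaged 10.48 to 10.69 and 11.41 to 11.53, with 8 of 8 measuring lower and 7 passing. Of all probe sets 14.1% passed as lower and 7.27% as higher. The part of either marker list in the layer differences was not tested.

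**Figure D3:**
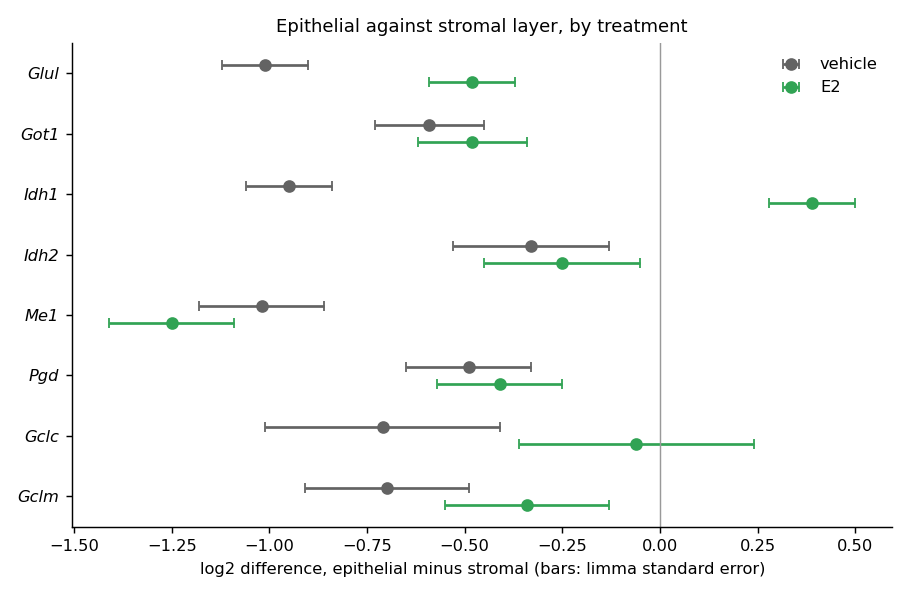
Log2 difference of the epithelial minus the stromal layer (horizontal axis) for the 8 enzyme genes under vehicle and under E2, with bars of 1 limma standard error. All 8 points under vehicle are below 0, and under E2 the point of Idh1 alone is above it, at 0.39.

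With all 12 arrays, Idh1 was the 1 gene of the 8 that measured higher in epithelium under E2, and without epithelial E2 replicate 3 Gclc did so too (0.36). The epithelial E2 arrays of Idh1 read 10.85 to 10.96 and its stromal E2 arrays 10.36 to 10.70, a difference of 0.39 ± 0.11 with no overlap. Glul stayed lower in epithelium by 0.48 ± 0.11, and Got1 by 0.48 ± 0.14. Me1 kept the widest gap, at -1.25 ± 0.16. In 5 genes all epithelial arrays were lower, beside 21.3% of all probe sets (17.6% for higher, 38.9% in either direction), and Gclc (-0.06 ± 0.30) and Gclm (-0.34 ± 0.21) overlapped. These values share the epithelial E2 arrays with the choice of the genes and are given without a test.

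For Idh1 the groups therefore stood in the order epithelial vehicle (9.01 ± 0.12, SD), stromal vehicle (9.96 ± 0.09), stromal E2 (10.50 ± 0.18) and epithelial E2 (10.89 ± 0.06), with no overlap between neighbours. For Glul the order was epithelial vehicle (8.65 ± 0.10, SD), stromal vehicle (9.66 ± 0.21), epithelial E2 (10.45 ± 0.08) and stromal E2 (10.93 ± 0.11), again without overlap. Got1 followed the order of Glul, from 9.16 ± 0.08 (SD) through 9.75 ± 0.13 and 9.96 ± 0.31 to 10.44 ± 0.05, and its middle groups overlapped. Me1 ran from 9.29 ± 0.17 (SD) and 9.56 ± 0.33 in epithelium to 10.31 ± 0.18 and 10.81 ± 0.06 in stroma, the epithelial groups overlapping. Idh2 (9.61 to 9.99), Pgd (10.82 to 11.32), Gclc (9.02 to 9.73) and Gclm (9.72 to 10.42) had group means closer together, each with 1 or more pairs of overlapping neighbours.

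Genes with the pattern most like Idh1 and Glul were named by the root mean square difference over the 12 arrays, each gene being centred on its own mean, among 19937 other genes. Closest to Idh1 were Hspb7 (a small heat shock protein, 0.21), Cd109 (a membrane-anchored co-receptor that inhibits TGF-beta signalling, 0.25), Zfp52 (a zinc finger protein, 0.25) and Tacc1 (a coiled-coil protein, 0.26). Hspb7 went from 9.58 to 11.16 with E2 in epithelium and from 10.48 to 10.99 in stroma. Closest to Glul were Fam13c (0.34), Arhgap42 (0.34), Zxdc (0.35) and the cytokine signalling inhibitor Socs2 (0.35). Fam13c went from 7.76 to 8.84 in epithelium and from 8.69 to 9.77 in stroma.

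Within the set, Idh1 was the 5th closest gene to Glul and Glul the 11th closest to Idh1, both at 0.36. Got1 ranked 41st from Glul (0.47) and 58th from Idh1 (0.44). Me1 ranked 450th from Glul (0.67) and 10828th from Idh1 (0.74), while Idh2, Pgd, Gclc and Gclm ranked from 2460th to 12978th. The ranking uses the epithelial arrays on which Idh1 and Glul were chosen, so it is not independent of that choice.

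**Figure D4:**
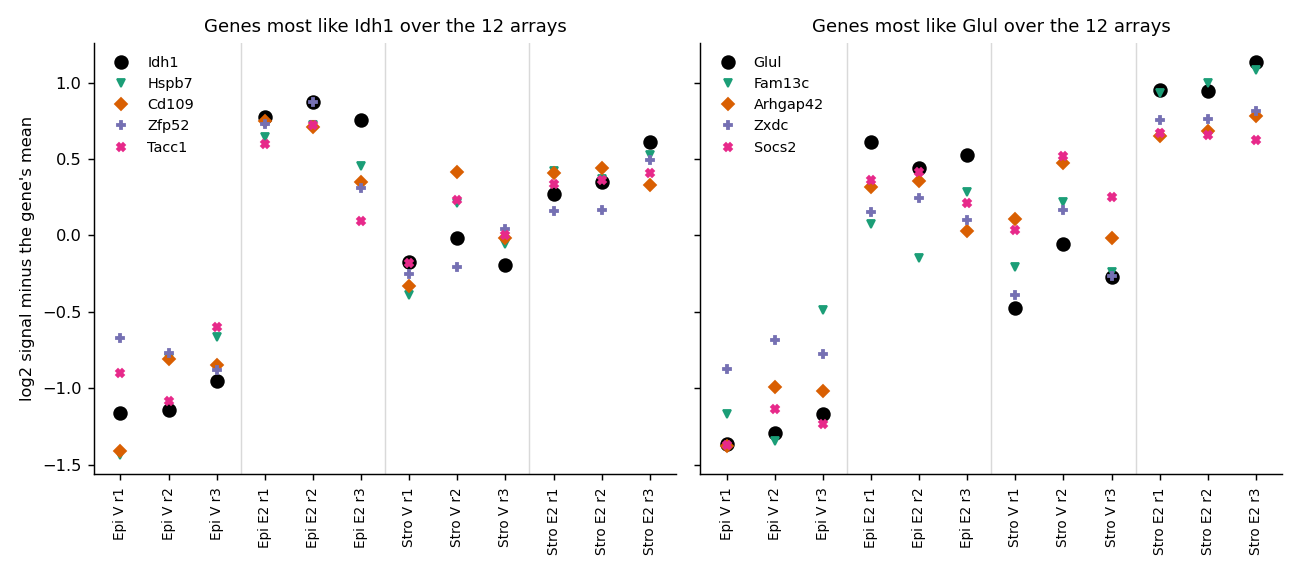
Log2 signal minus the mean of each gene (vertical axis) on each of the 12 arrays for Idh1 and Glul (black) and the 4 genes closest to each. V is vehicle and r the replicate number, and all of these genes are lowest on the epithelial vehicle arrays.

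Genes of related metabolism, in 7 lists from general knowledge, gave few changes with E2 in stroma. Of 110 genes measured, 5 rose (4.55%) and 2 fell (1.82%), beside 1.52% and 1.98% of all probe sets, with a median of 0.01. The glutathione list had 2 of 20 rising and 1 falling. Gpx1, the main cytosolic glutathione peroxidase, read 10.55, 10.42 and 10.57 under vehicle and 11.34, 11.37 and 11.58 under E2 (0.92 ± 0.10, 1.89-fold, limma adjusted p = 0.000314). The secreted peroxidase Gpx3 rose by 1.00 ± 0.22 (limma adjusted p = 0.0280). The cystine importer Slc7a11 read 9.61, 9.63 and 9.69 under vehicle and 7.81, 7.79 and 6.49 under E2, a fall of 4.85-fold (-2.28 ± 0.52, limma adjusted p = 0.0336). E2 replicate 3 was the lowest array there, as for Gclc and Gclm.

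Among the other NADPH and one-carbon enzymes, 1 of 13 rose, the mitochondrial malic enzyme Me3. It read 6.94, 7.91 and 7.35 under vehicle and 8.95, 8.91 and 9.10 under E2, 3.00-fold higher (1.58 ± 0.22, limma adjusted p = 0.00187). Whether its vehicle values lay above background was not tested. In the glutamine and glutamate list 1 of 18 rose and 1 fell. These were the glutamine transporter Slc38a1 (0.82 ± 0.18, 1.77-fold, limma adjusted p = 0.0255) and the mitochondrial alanine aminotransferase Gpt2 (-0.50 ± 0.09, limma adjusted p = 0.0116). Epoxide hydrolase Ephx1 rose by 0.78 ± 0.18 (limma adjusted p = 0.0359) as 1 of 18 thioredoxin and NRF2-responsive genes.

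By limma 0 of 9 pentose phosphate genes (1 higher and 0 lower at an unadjusted p under 0.05), 0 of 22 citric acid cycle and malate-aspartate shuttle genes (3 and 1) and 0 of 10 genes of NADPH-consuming lipid synthesis (0 and 1) passed in stroma. Gpx1 and Me3 kept their calls without any 1 of the 12 arrays and with E2 replicates 1 and 2 averaged. The 5 rising genes became 2 without stromal vehicle replicate 1 or 3 or any 1 stromal E2 array, and with that average. The count of 2 falling genes became 0 without stromal vehicle replicate 3, stromal E2 replicate 1 or 2 and with that average, 1 without stromal vehicle replicate 1 or 2 or stromal E2 replicate 3, 4 without epithelial vehicle or E2 replicate 3, and 6 without epithelial vehicle replicate 2. Slc7a11 and Gpx3 lost their calls without any 1 of the 6 stromal arrays (limma adjusted p up to 0.132 and 0.118), and Slc7a11 with quantile normalization (0.0606). Slc38a1 lost its call without stromal vehicle replicate 1 or 3 or any 1 stromal E2 array (up to 0.118), Gpt2 without stromal vehicle replicate 3 or stromal E2 replicate 1 or 2 (up to 0.0613) and with the 75th percentile subtracted (0.110), and Ephx1 without those 3 arrays, stromal vehicle replicate 1, stromal E2 replicate 3 or epithelial E2 replicate 1 or 2 (up to 0.148).

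**Figure D5:**
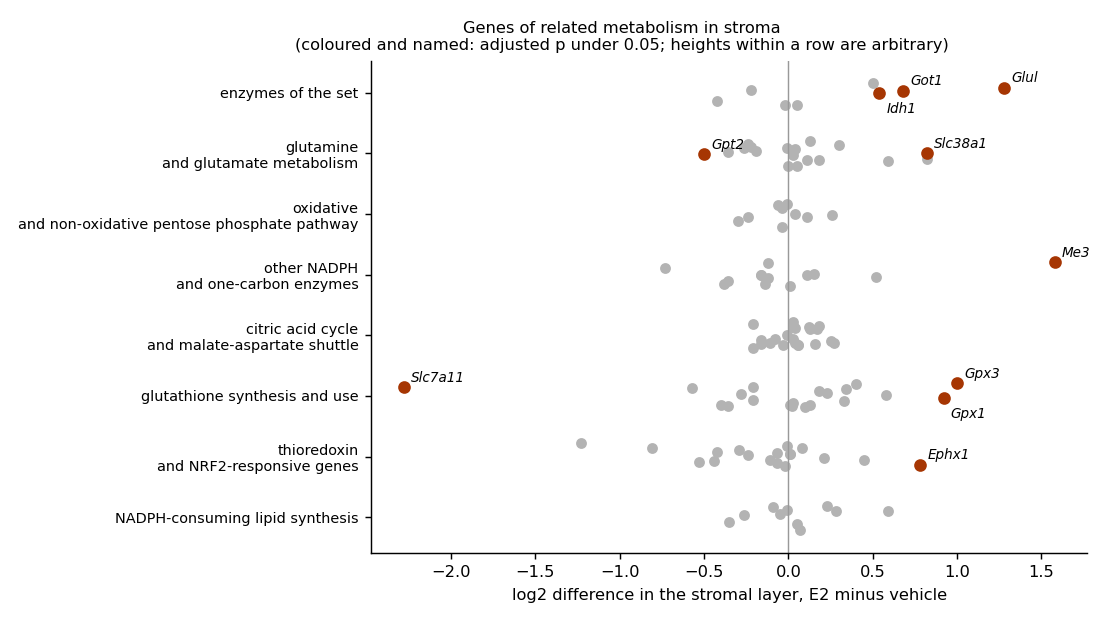
Log2 difference of E2 minus vehicle in stroma (horizontal axis) for each measured gene of the enzyme set and of the 7 related lists, with heights inside a row arbitrary. Coloured, named points had a limma adjusted p under 0.05, and Slc7a11 stands lowest at -2.28 and Me3 highest at 1.58.

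In the epithelial layer 3 of the 110 list genes rose with E2 and 1 fell (2.73% and 0.909%), beside 1.77% and 1.12% of all probe sets. The mitochondrial aspartate-glutamate carrier Slc25a12, which works with Got1 in the malate-aspartate shuttle, rose by 0.54 ± 0.12 (limma adjusted p = 0.0313). Ggt5, a gamma-glutamyltransferase that cleaves glutathione conjugates, read 6.81, 6.92 and 7.46 under vehicle and 8.28, 8.25 and 8.27 under E2 (1.21 ± 0.21, 2.31-fold, limma adjusted p = 0.0125). Glutaredoxin (Glrx) rose by 0.99 ± 0.23 (limma adjusted p = 0.0424), and the pentose phosphate isomerase Rpia fell by 0.54 ± 0.12 (limma adjusted p = 0.0419). With E2 replicates 1 and 2 averaged none of these 4 passed by limma (adjusted p from 0.0987 to 0.257), and Ggt5 was lost without epithelial E2 replicate 1 or 2 (up to 0.0588). Slc25a12 was lost without either of these, stromal vehicle replicate 1 or 3 or any 1 stromal E2 array (up to 0.126). Glrx and Rpia were lost without epithelial vehicle replicate 1 or 2, epithelial E2 replicate 1 or 2, any 1 stromal vehicle array or stromal E2 replicate 1 or 2 (up to 0.174 and 0.143), and Rpia without stromal E2 replicate 3 as well.

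Between the layers under vehicle, 32 of the 110 list genes were lower in epithelium (29.1%) and 10 higher (9.09%), beside 14.1% and 7.27% of all probe sets. In the citric acid cycle and shuttle list 9 of 22 were lower and 0 higher by limma (11 and 1 at an unadjusted p under 0.05), with a median of -0.21. They included Idh3a, a subunit of the NAD-dependent isocitrate dehydrogenase (-0.65 ± 0.09), Slc25a12 (-0.77 ± 0.12), the succinyl-CoA ligase subunit Sucla2 (-0.71 ± 0.11) and the citrate carrier Slc25a1 (-0.40 ± 0.08). The adjusted p of these 4 lay between 0.000462 and 0.00402 by limma. The counts of this list depended on the scaling, since with the 75th percentile subtracted 3 of 22 were lower and 2 higher, and Slc25a1 was not called (-0.23, limma adjusted p = 0.139). The median of the list was then -0.04, against 0.19 over all probe sets, which had been 0.02 on the deposited scale. In the glutathione list 9 of 20 were lower and 4 higher (7 and 5 with that scaling), the lowest being Glrx (-1.75 ± 0.23) and Gpx3 (-1.64 ± 0.22). Catalase (Cat, -1.07 ± 0.14) and biliverdin reductase B (Blvrb, -1.59 ± 0.22) were among 5 of 18 thioredoxin and NRF2-responsive genes that were lower (3 higher and 2 lower with that scaling, against 1 higher and 5 lower).

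In the glutamine and glutamate list 3 of 18 were higher and 4 lower in epithelium (3 and 2 with the 75th percentile subtracted). The amino acid transporters Slc38a2 (0.71 ± 0.09) and Slc1a5 (1.02 ± 0.20) and the glutamate transporter Slc1a3 (0.82 ± 0.14) were higher, while Gpt2 (-0.67 ± 0.09) and the hexosamine enzyme Gfpt2 (-1.10 ± 0.16) were lower. Slc1a3 read 6.66, 6.84 and 7.27 in epithelium and 6.21, 5.95 and 6.16 in stroma under vehicle. Whether these values lay above background was not tested. The adjusted p of Slc38a2, Slc1a3, Gpt2 and Gfpt2 lay between 0.000320 and 0.00176 by limma. Mthfd2l, a mitochondrial folate enzyme, was lower by 1.46 ± 0.13 (limma adjusted p = 3.48e-05), and Prps2, which makes phosphoribosyl pyrophosphate, by 0.98 ± 0.16. The count of 10 higher genes became 17 without epithelial vehicle replicate 3. With the 75th percentile of each array subtracted, the counts over the 110 list genes were 22 higher and 17 lower. Over all 23410 probe sets tested, the counts were then 2663 higher and 1838 lower, against 1703 and 3298 on the deposited scale. The balance of the calls therefore moved over the whole array and not in the lists alone.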

How the data were processed

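The deposited values were log2 signals of 35556 probe sets on 12 arrays, made by the authors with RMA per the submitters' processing notes, version and settings not given in the sources used here. They ranged from 3.2 to 14.0 and were tested as deposited. Gene symbols came from the platform annotation (23410 probe sets with a symbol, 21789 with 1), and the brightest single-symbol probe set stood for each gene. The identifiers of all 8 measured members were in the mouse RefSeq table.

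Differences were fitted with limma 3.58.1 in R 4.3.3 (lmFit, eBayes, two-sided) on all 12 arrays and 4 groups, with 8 residual degrees of freedom and 3.27 from the prior. Tests over 23410 probe sets passed at an adjusted p under 0.05. One spread per probe set was shared by all groups, although median SDs were 0.185 and 0.158 in epithelium and 0.0946 and 0.0804 in stroma. The procedure was run on simulated data with independent arrays and the same SD in all groups. That run cannot check the shared spread, and nothing is read from it here.

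The members and lists were chosen with earlier results of these data known, and the average of E2 replicates 1 and 2 was chosen after seeing the data. All members were named, up to 4 genes past the threshold per list and comparison, and the 4 genes most like Idh1 and Glul, without gene models. Slc1a5 was named beyond that rule, after its values were seen. Residuals of same-numbered vehicle arrays of the layers correlated weakly (r = 0.17, 0.14 and 0.13), and no label states that they are paired. The reported layer tests are unpaired, and the replicate number was blocked as an alternative. Promoters came from RefSeq. Alternatives covered scaling, filters, the spread, arrays fitted, the replicate number and leaving out arrays.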

Additional observations from a re-analysis of the deposited data

Results flagged for a closer look

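The E2 difference of Ggt5, a gamma-glutamyltransferase, was 1.21 in epithelium and -0.28 in stroma, a gap of 1.48 ± 0.30 on the log2 scale (limma interaction, adjusted p = 0.0482). Only list genes already named for passing a comparison were examined. Ggt5 was named for its epithelial rise, which is part of this gap, so the p-value is not independent of that choice. That rise did not pass with E2 replicates 1 and 2 averaged (limma adjusted p = 0.0987). The gap was not refitted under the alternatives.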

How the results depend on the processing

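Glul in stroma and Me1 and Got1 between the layers kept direction and call under all 23 alternatives. For values reported without a test, moves beyond the spread between replicates were those of the layer difference of Idh1 (-0.85 with quantile normalization and -0.79 with the 75th percentile) and Glul (-0.84, and -0.38 under E2, with the 75th percentile) and, without epithelial E2 replicate 3, of the gap between layers of Got1 (0.29) and Gclc (1.07). The count of members rising in stroma was 1 with the replicate block and with E2 replicates 1 and 2 averaged, and 1 to 4 when 1 array was left out. The count of members lower in epithelium was 2 with the 75th percentile, on the 6 arrays alone and with that average, and 2 to 5 when 1 array was left out. Probe sets called in stroma numbered 820, and 4503 with array weights, 2142 on the 6 arrays alone, 303 with the average and 413 to 1342 without 1 array, and those between layers 5001, and 9867 with array weights. List genes rising in stroma numbered 2 with the average and 2 to 7 without 1 array, those falling 0 and 0 to 6 (1 with the 75th percentile), and those higher in epithelium 8 to 17 without 1 array. Between the layers 22 list genes were higher and 17 lower with the 75th percentile, beside 2663 and 1838 of all probe sets. This scaling was added for the lists after seeing the data. Idh2 in stroma turned to -0.00 with array weights and lay between -0.02 and 0.11 without 1 array, and Pgd turned to 0.04 with the 75th percentile and lay between -0.06 and 0.05. The causes of these changes were not tested.

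The replicate number was blocked within each layer for the E2 differences, where same-numbered stromal arrays had residual correlations of 0.20, -0.04 and 0.03 and shared only a number. With this replicate block Idh1 (limma adjusted p = 0.0604) and Got1 (0.0535) were not called in stroma. Between the layers under vehicle the block changed no call among the members. With 3 arrays per group and no measure of background, low signals such as Me3 and Slc1a3 are limited in precision.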
